A study of Homo sapiens with 18 samples.

Results

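The genes described here are the SR, hnRNP and snRNP splicing factors: the protein-coding genes of the deposited count table whose symbols begin with SRSF, HNRNP, SNRP, SF3A, SF3B, U2AF or PRPF. Of 58735 genes in the table, 285 symbols match these prefixes, 201 of them pseudogenes and 7 antisense genes. A mean of at least 10 counts over the 18 libraries was required, which left 72 genes. The lowest of them, PRPF40B, averaged 273.9 counts, while SRSF12, just under the limit, averaged 8.44 counts. By role they were 23 hnRNP genes, 13 PRPF genes, 11 SR genes, 11 genes of the U2 snRNP, 8 genes of the Sm core, 4 U2AF genes and 2 genes of the U1 snRNP. All 72 passed the filter on low counts applied to the whole table.

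The study measured polyadenylated RNA in RPMI-8402, a human T-cell acute lymphoblastic leukaemia line, in which PIK3R1, the gene of the regulatory subunit of phosphoinositide 3-kinase, had been knocked out. Knockout (KO) cells and cells with a non-targeting control (NT, labelled as wild type) were each treated for 24 h with CB-103 (a blocker of NOTCH transcription complex assembly), with a gamma-secretase inhibitor (GSI, whose number the submitters give as LY3039278; it was not checked here), or with the solvent DMSO. Each of the 6 groups (KO and NT cells under CB-103, under GSI and under DMSO) held 3 libraries. The labels give neither the drug doses nor whether the knockout is 1 clone or a pool, and they do not state that the 3 libraries of a group came from separate cultures, so the p-values measure the spread between these libraries, which may be technical.

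Splicing is carried out by the spliceosome, which is built from small nuclear RNAs, most of them carrying a ring of Sm proteins, and from proteins particular to each snRNP. The U1 snRNP marks the donor splice site, U2AF and the U2 snRNP mark the acceptor site and the branch point, and the PRPF proteins belong mostly to the tri-snRNP and the catalytic core. SR proteins generally promote, and hnRNP proteins often repress, the use of nearby splice sites, and many genes of both families limit their own level by producing transcripts with a premature stop codon that are removed by nonsense-mediated decay. MYC, a NOTCH target in T-cell leukaemia, is known to raise the expression of splicing factors in lymphoid cells.

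The knockout was checked first. PIK3R1 was at 23.1, 21.4 and 23.2 CPM (reads scaled to library size by TMM) in KO cells under DMSO, against 44.3, 45.5 and 42.5 CPM in NT cells under DMSO. Under GSI it was at 27.4, 32.2 and 23.9 CPM in KO cells, against 50.7, 57.1 and 53.0 CPM in NT cells. Under CB-103 the groups overlapped, with 25.9, 29.9 and 27.6 CPM in KO cells and 30.9, 33.5 and 29.05 CPM in NT cells, and the difference of -0.16 ± 0.09 (log2, SE) was not called (edgeR adjusted p = 0.17). An mRNA level does not measure the edit itself. HES1, a direct NOTCH target, fell in KO cells by 2.43 (log2) under CB-103 and by 2.84 under GSI, and MYC fell by 2.05 under CB-103 and by 1.63 under GSI. In NT cells HES1 fell by 2.42 under CB-103 and by 1.88 under GSI, and MYC fell by 2.202 and by 1.96. Of 9 genes chosen as marks of the line, the leukaemia factors TAL1 and LMO1 included, 7 had group means of at least 13.9 CPM (LCK 389 to 747 CPM). LMO1 was lower under CB-103 and GSI than under DMSO in both genotypes. It ranged from 13.9 CPM in KO cells under GSI to 189 CPM in NT cells under DMSO. CD2 was at 5.29 to 62.5 CPM, lowest in NT cells under CB-103 and highest in NT cells under DMSO. CD7 was at 7.79, 8.79 and 22.1 CPM in KO cells under CB-103, GSI and DMSO, against 1.01, 2.49 and 4.19 CPM in NT cells. Of 15 markers of B, myeloid, erythroid and adherent cells, COL1A1 was at 3.63 to 22.8 CPM, lower under CB-103 than under GSI or DMSO in both genotypes, and the other 14 were at or below 2.84 CPM, with HBB at 0 in 18 of 18 libraries. The part of these markers in the results was not tested. Libraries held 30416183 to 43558387 assigned reads. The deviations of replicate 1 libraries from their group means correlated between groups at a median of 0.299, those of replicate 2 at 0.114 and those of replicate 3 at 0.112.

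The splicing factors were abundant. Averaged over all libraries, HNRNPA1, a splicing repressor and mRNA export factor, reached 4524 TPM (a transcript level corrected for length), followed by HNRNPA2B1 at 1335 TPM and HNRNPC at 1208 TPM. The median of the 72 genes was 175.5 TPM, and the lowest was PRPF40B at 3.93 TPM. By role the median was 308.8 TPM for the Sm core, 238.0 TPM for hnRNP genes, 235.9 TPM for SR genes, 164.5 TPM for U2 genes and 59.7 TPM for PRPF genes. Together the 72 genes took 2.14 ± 0.0271% of all reads in KO cells and 2.01 ± 0.0382% in NT cells under CB-103. Under GSI they took 2.70 ± 0.0466% in KO cells and 2.64 ± 0.0220% in NT cells, and under DMSO 2.71% in both (SD 0.0268 in KO cells and 0.00828 in NT cells, n = 3 each). The share was therefore lower in every CB-103 library than in any other library. These are shares of a bulk library: less RNA per cell and fewer cells of a kind cannot be told apart, and a change in the total RNA of a cell is not seen.

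CB-103 lowered the splicing factor genes broadly, the Sm core and the hnRNP genes foremost, while a smaller share of the U2 genes was called than of all genes. In KO cells 39 of the 72 genes fell and 10 rose against DMSO (edgeR, Benjamini-Hochberg adjusted p under 0.05 over all 17346 genes tested; 68.1%), against 23.7% and 24.9% of all genes tested (48.6% in all). In NT cells 45 fell and 12 rose (79.2%), against 28.7% and 29.5% of all genes (58.2% in all). The median log2 change of the splicing factors was -0.20 in KO and -0.30 in NT cells; that of all genes in NT cells was 0.04. When single libraries, or all libraries of replicate 1, were left out, the count was 47 to 51 in KO and 53 to 58 in NT cells.

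**Figure D1:**
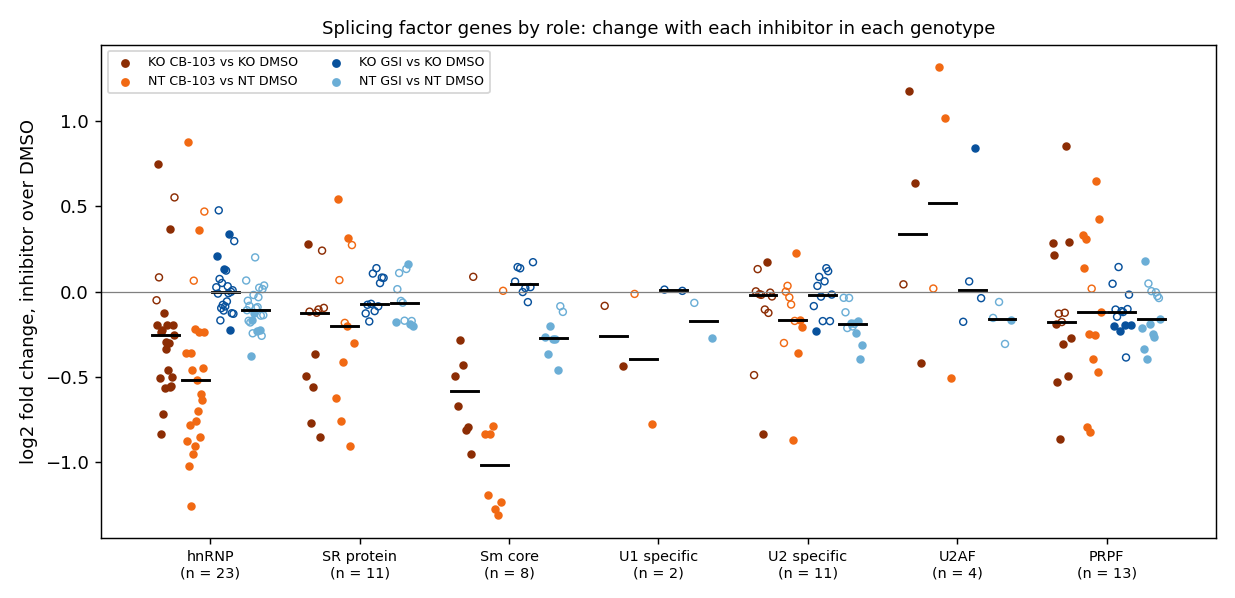
log2 fold change against DMSO of each of the 72 genes by role, for CB-103 and GSI in KO and NT cells (edgeR); each point is a gene, filled at adjusted p under 0.05, and lines are medians. In NT cells under CB-103 7 of 8 Sm core genes and 19 of 23 hnRNP genes were lower and called, while in KO cells under GSI 10 of 72 genes were called.

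The Sm proteins form the ring on which most spliceosomal snRNPs are assembled. The same 7 of their 8 genes fell under CB-103 in both genotypes, with a median log2 change over all 8 of -0.58 in KO and -1.01 in NT cells. SNRPF was at 81.1, 88.9 and 90.5 CPM under CB-103 in KO cells, against 151, 151 and 149 CPM under DMSO (-0.79 ± 0.06, SE; adjusted p = 1.9e-09). In NT cells it was at 62.0, 55.9 and 58.1 CPM under CB-103, against 148, 147 and 142 CPM under DMSO (-1.31 ± 0.06, adjusted p = 1.5e-12). Neither pair of groups overlapped, and KO cells under CB-103 lay above NT cells under CB-103 and below both DMSO groups. SNRPE changed by -0.81 ± 0.06 in KO cells, and in NT cells was at 99.3, 84.5 and 91.8 CPM under CB-103, against 225, 221 and 220.0 CPM under DMSO (-1.27 ± 0.06, adjusted p = 5e-12). SNRPG changed by -0.95 ± 0.08 in KO cells, and in NT cells was at 60.0, 47.9 and 52.9 CPM under CB-103, against 139, 119.5 and 119 CPM under DMSO (-1.23 ± 0.08). All CB-103 libraries of both genes lay below all DMSO libraries in NT cells. SNRPD1 changed by -0.67 ± 0.09 in KO cells, and in NT cells averaged 65.0 ± 8.45 CPM under CB-103 and 149 ± 11.5 CPM under DMSO (SD, n = 3 each), a change of -1.19 ± 0.09. The falls of SNRPB, SNRPD2 and SNRPD3 in NT cells lay between -0.84 and -0.79. SNRPN, a paralogue from an imprinted locus, averaged 61.6 ± 2.50 CPM under CB-103 and 61.4 ± 5.11 CPM under DMSO in NT cells (0.00 ± 0.06, adjusted p = 0.96). Reads of SNRPN and SNRPB may be shared between the copies.

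**Figure D2:**
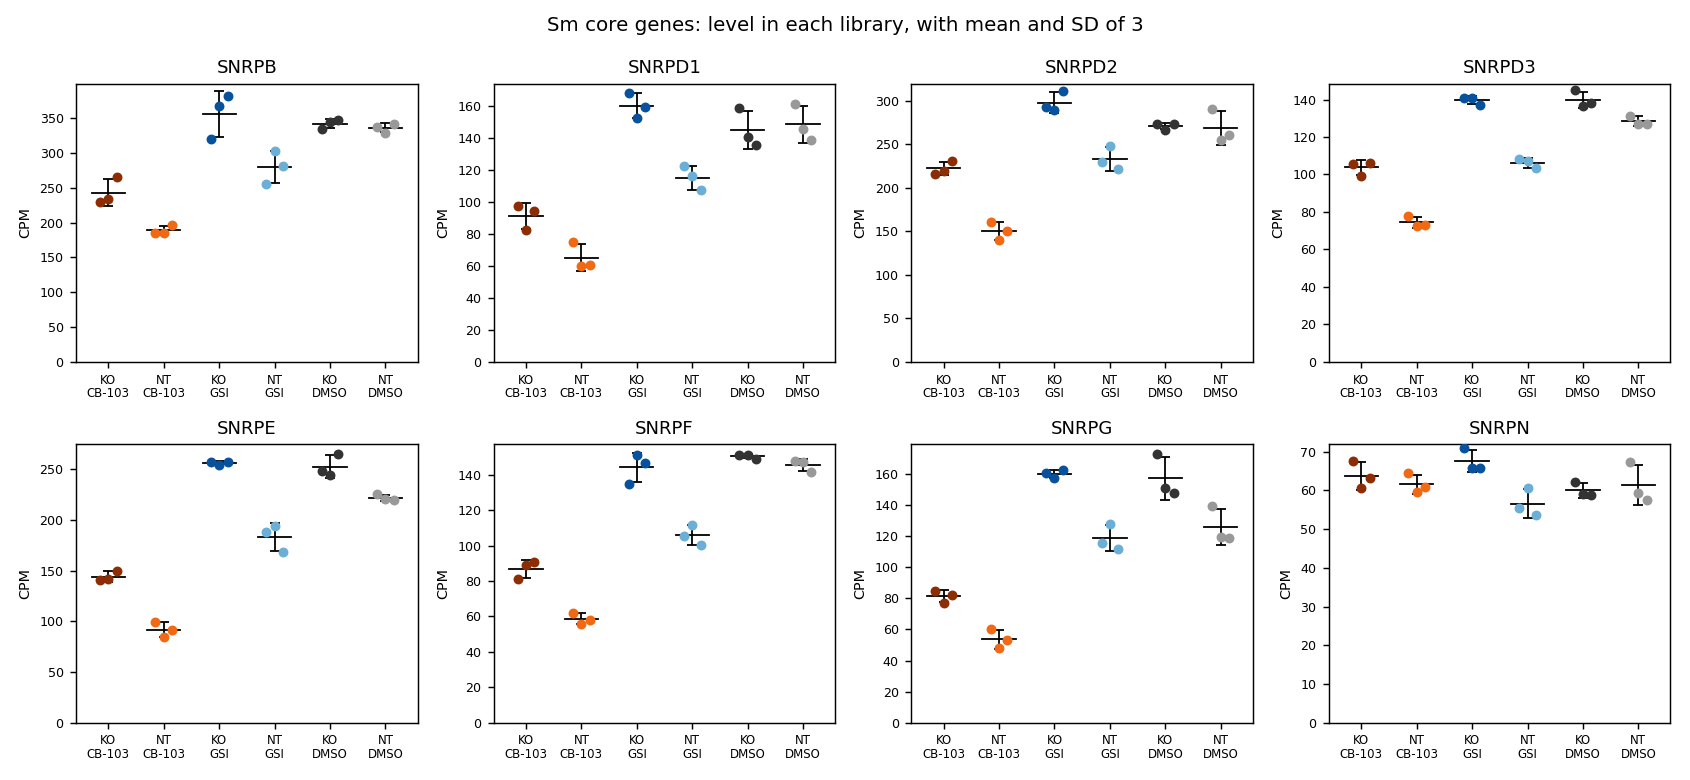
TMM-scaled CPM of the 8 Sm core genes in each of the 18 libraries, with the mean and SD of 3 libraries per group, KO left of NT within each treatment. For SNRPF the CB-103 libraries sit at 55.9 to 90.5 CPM, below all DMSO libraries (142 to 151 CPM), with KO above NT; SNRPN shows no such step.

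Of the hnRNP genes, which coat nascent transcripts, 18 of 23 fell and 2 rose under CB-103 in KO cells (median -0.25), and 19 fell and 2 rose in NT cells (median -0.52). HNRNPA1 was at 3691, 3608 and 3985 CPM under CB-103 in KO cells, against 4209.7, 4331 and 4395 CPM under DMSO (-0.20 ± 0.05, adjusted p = 0.0042). In NT cells it was at 2754, 2705 and 2515 CPM under CB-103, against 4647, 4990.1 and 4962 CPM under DMSO (-0.87 ± 0.05, adjusted p = 1.1e-10). Neither pair of groups overlapped. HNRNPAB changed by -0.83 ± 0.11 in KO cells, and in NT cells was at 131, 106 and 101 CPM under CB-103, against 295, 258 and 256 CPM under DMSO (-1.26 ± 0.11, adjusted p = 1.1e-08). In NT cells HNRNPK, which binds C-rich RNA, changed by -0.70 ± 0.07, and HNRNPC, which binds U-rich tracts, by -0.46 ± 0.06. HNRNPD, HNRNPF and HNRNPM, singled out after their values were seen, changed by -0.95, -0.90 and -0.85 in NT cells. HNRNPLL, a regulator of CD45 splicing in T cells, rose by 0.37 ± 0.05 in KO cells, and in NT cells was at 54.3, 49.5 and 51.2 CPM under CB-103, against 40.5, 39.6 and 40.7 CPM under DMSO (0.36 ± 0.05, adjusted p = 5.1e-06). HNRNPA1L2 also rose in NT cells, by 0.88 ± 0.11, but it and HNRNPA1L3 are near copies of HNRNPA1, whose reads could have been split among them.

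SR genes moved in both directions under CB-103: 5 of 11 fell and 1 rose in KO cells (54.5%, against 48.6% of all genes), and 6 fell and 2 rose in NT cells (72.7%, against 58.2%). SRSF7, which also takes part in mRNA export, was at 139, 134 and 149 CPM under CB-103 in KO cells, against 258, 249.8 and 254 CPM under DMSO (-0.85 ± 0.05). In NT cells it was at 144, 134 and 140.2 CPM under CB-103, against 267, 259 and 255 CPM under DMSO (-0.90 ± 0.05, adjusted p = 1.4e-11). Neither pair of groups overlapped. SRSF2 changed by -0.77 ± 0.08 in KO and -0.76 ± 0.08 in NT cells, SRSF1 by -0.50 ± 0.05 and -0.62 ± 0.05, and SRSF3 by -0.56 ± 0.08 and -0.41 ± 0.08. SRSF2 and SRSF8 are near copies and may share reads. SRSF10, a regulator whose activity depends on its dephosphorylation, rose by 0.28 ± 0.05 in KO cells, and in NT cells was at 359, 361 and 382 CPM under CB-103, against 245, 253 and 258 CPM under DMSO (0.54 ± 0.05, adjusted p = 1.8e-08).

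Of the U1 genes, SNRPC, which steadies the pairing of U1 with the donor site, changed by -0.44 ± 0.06 in KO cells and by -0.78 ± 0.06 in NT cells under CB-103; it was picked after its values were seen. SNRPA was not called in either (-0.08 ± 0.09 and -0.01 ± 0.09). Of the U2 genes, 1 of 11 fell and 1 rose in KO cells (18.2%, against 48.6% of all genes, median -0.02), and 4 fell and 1 rose in NT cells (45.5%, against 58.2%, median -0.17). SF3B1, the branch-point subunit that is often mutated in myeloid disease, changed by -0.02 ± 0.06 in KO cells (adjusted p = 0.85). In NT cells it was at 521, 466 and 468 CPM under CB-103, against 515, 501 and 473 CPM under DMSO (-0.03 ± 0.06, adjusted p = 0.65), and the groups overlapped. SF3A3 was not called in either genotype (0.13 ± 0.09 in KO and 0.03 ± 0.09 in NT cells), and SNRPA1 fell in NT cells by 0.17 with an adjusted p of 0.023 that reached 0.12 without replicate 2 of NT cells under DMSO. SF3B3, a scaffold of the SF3b complex, was at 233, 171 and 172 CPM under CB-103 in KO cells, against 420.0, 304 and 304 CPM under DMSO (-0.84 ± 0.16); in NT cells it was at 200.002, 149.9 and 153 CPM, against 347, 278 and 293 CPM (-0.87 ± 0.16). In each of these 4 groups replicate 1 was the highest library.

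U2AF2, which binds the polypyrimidine tract, fell in both genotypes under CB-103, with changes of -0.42 ± 0.04 in KO cells and -0.51 ± 0.04 in NT cells (adjusted p = 9e-10). U2AF1, which reads the AG of the acceptor site, was not called in either (0.04 ± 0.08 in KO and 0.02 ± 0.08 in NT cells), while the row of U2AF1L5, its near-identical copy in the annotation, rose by 0.63 ± 0.15 in KO cells and by 1.02 ± 0.15 in NT cells. Reads of the pair cannot be assigned with certainty. With the counts of both rows summed, an alternative chosen after seeing the data, U2AF1 was higher under CB-103 by 0.20 (adjusted p = 0.0082) in KO cells and by 0.39 (adjusted p = 1.4e-05) in NT cells. U2AF1L4, a gene of low level picked after its values were seen, rose by 1.17 in KO and by 1.32 in NT cells. It averaged 22.3 ± 0.73 TPM under CB-103 and 10.2 ± 1.1 TPM under DMSO in KO cells, and 29.7 ± 1.6 and 11.5 ± 1.2 TPM in NT cells (SD).

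PRPF genes were divided: 6 of 13 fell and 4 rose under CB-103 in KO cells (76.9%, against 48.6% of all genes), and 7 fell and 5 rose in NT cells (92.3%, against 58.2%). PRPF38B was at 126, 125 and 119 CPM under CB-103 in KO cells, against 235, 221 and 216 CPM under DMSO (-0.86 ± 0.05). In NT cells it was at 151, 144 and 142 CPM under CB-103, against 267, 246 and 258 CPM under DMSO (-0.82 ± 0.05, adjusted p = 3.1e-10). All CB-103 libraries lay below all DMSO libraries of the same genotype. PRPF31, a tri-snRNP protein, changed by -0.53 ± 0.07 in KO and -0.80 ± 0.07 in NT cells, and PRPF4B, a kinase that phosphorylates tri-snRNP proteins, by -0.50 ± 0.07 and -0.47 ± 0.07. PRPF6, also of the tri-snRNP, rose by 0.29 ± 0.05 in KO cells, and in NT cells was at 258, 250.3 and 249 CPM under CB-103, against 184, 196 and 185 CPM under DMSO (0.42 ± 0.05, adjusted p = 3.9e-07). PRPF18, which acts in the second step of splicing, rose by 0.28 ± 0.06 in KO and by 0.33 ± 0.06 in NT cells. PRPF8, the centre of the active site, changed by -0.27 ± 0.05 in KO cells and by -0.12 ± 0.05 in NT cells (adjusted p = 0.039, and up to 0.11 on leaving out single libraries, highest without replicate 1 of NT cells under DMSO). The ubiquitin ligase PRPF19 changed by 0.21 ± 0.05 in KO cells and by 0.14 ± 0.05 in NT cells (adjusted p = 0.03, and 0.16 without replicate 1 of NT cells under CB-103).

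In KO cells under GSI, 6 of 72 genes fell and 4 rose (13.9%), against 9.58% and 9.69% of all genes (19.3% in all), and the median was -0.01. None of the 8 Sm core genes was called by edgeR; SNRPN (0.17 ± 0.06, adjusted p = 0.071) and SNRPD2 (0.14 ± 0.06, adjusted p = 0.13) were the 2 with an unadjusted p under 0.05. SNRPF was at 135, 151 and 147 CPM in KO cells under GSI, against 151, 151 and 149 CPM under DMSO, with overlap (-0.06 ± 0.06, adjusted p = 0.5). PRPF38B (-0.23 ± 0.05), SF3A2 (-0.23 ± 0.05), HNRNPM (-0.22 ± 0.05) and PRPF19 (-0.20 ± 0.05) fell, and HNRNPLL (0.34 ± 0.05), HNRNPA1 (0.21 ± 0.05) and HNRNPF (0.13 ± 0.04) rose. The calls of HNRNPM, PRPF19, HNRNPA1 and HNRNPF were each lost without 1 library (adjusted p of 0.091 without replicate 3 of KO cells under DMSO for HNRNPM, 0.13 without the same library for PRPF19, 0.062 without replicate 2 of KO cells under GSI for HNRNPA1 and 0.077 without replicate 1 of KO cells under DMSO for HNRNPF), and that of SF3A2 without all libraries of replicate 1 (adjusted p = 0.072). U2AF1L5 rose to 97.5, 74.8 and 57.8 CPM under GSI, against 40.0, 42.7 and 46.0 CPM under DMSO (0.84 ± 0.15), whereas the summed U2AF1 rows were not called (0.12, adjusted p = 0.16).

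In NT cells under GSI 28 of the 72 genes fell and 2 rose (41.7%), with a median of -0.16; of all genes 24.7% were called, with 9.67% of all genes higher. Of the Sm core 6 of 8 fell, with a median of -0.27. SNRPF was at 106, 112 and 100.4 CPM under GSI, below the 3 DMSO libraries (-0.46 ± 0.06, adjusted p = 7.8e-06), SNRPD1 changed by -0.37 ± 0.09 and SNRPE by -0.28 ± 0.06. PRPF31 was at 84.1, 81.9 and 78.8 CPM under GSI, against 112, 105 and 105 CPM under DMSO (-0.40 ± 0.07), and SNRPA1 of the U2 snRNP at 71.7, 77.2 and 71.5 CPM, against 93.5, 102 and 93.9 CPM (-0.39 ± 0.06). Both were below every DMSO library. HNRNPAB changed by -0.38 ± 0.10 (adjusted p = 0.013, and 0.071 without replicate 1 of NT cells under DMSO), and PRPF19 by -0.34 ± 0.05. HNRNPA1 (-0.11 ± 0.05, adjusted p = 0.14), HNRNPK (-0.09 ± 0.07) and SRSF2 (-0.05 ± 0.07) were not called. The 2 genes that rose were PRPF3 (0.18 ± 0.05, adjusted p = 0.008, and up to 0.057 without 1 library, replicate 2 of NT cells under DMSO) and SRSF6 (0.16 ± 0.05, adjusted p = 0.034, and up to 0.21 without 1 library, replicate 3 of NT cells under GSI).

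Knockout cells were compared with control cells within each treatment. Under DMSO 4 splicing factors were higher and 5 lower in KO cells (12.5%), against 9.78% and 11.7% of all genes (21.4% in all). With the replicate number as a block, whose pairing is not established, the count was over 1.5 times as high. HNRNPLL was at 55.0, 52.7 and 56.0 CPM in KO cells, against 40.5, 39.6 and 40.7 CPM in NT cells (0.44 ± 0.05, adjusted p = 4e-06), and all KO libraries lay above all NT libraries. SF3B5, a small subunit of SF3b, was at 61.5, 60.8 and 58.6 CPM in KO cells, against 87.7, 81.2 and 80.1 CPM in NT cells (-0.46 ± 0.06, adjusted p = 1.5e-05), with all KO libraries below. PRPF39, associated with the U1 snRNP, was at 82.8, 70.2 and 64.2 CPM in KO cells, against 94.0, 91.4 and 99.0 CPM in NT cells (-0.39 ± 0.09). SRSF5 (-0.35 ± 0.08) and PRPF38B (-0.20 ± 0.05) were lower, and SNRPG (0.32 ± 0.08) and SNRPE (0.19 ± 0.06, adjusted p = 0.031) higher. Without 1 library the adjusted p reached 0.19 for SNRPE (replicate 3 of KO cells), 0.055 for SNRPG (replicate 1 of KO cells) and 0.059 for PRPF38B (replicate 1 of NT cells), and without all libraries of replicate 1 the count was 16.

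Under CB-103 the Sm core and many hnRNP genes were higher in KO cells than in NT cells. In all 24 genes were higher and 16 lower (55.6%), against 20.4% and 16.5% of all genes (37.0% in all). Of the Sm core 7 of 8 were higher, with a median of 0.53, and of the hnRNP genes 12 of 23 were higher and 2 lower, with a median of 0.18. SNRPE was at 140.4, 141 and 150.2 CPM in KO cells, against 99.3, 84.5 and 91.8 CPM in NT cells (0.65 ± 0.06, adjusted p = 2.5e-07), without overlap. SNRPG (0.60 ± 0.08), SNRPF (0.57 ± 0.06) and HNRNPA1 (0.50 ± 0.05) were higher as well. Of the SR genes 6 of 11 were lower, among them SRSF6, at 216, 206 and 203 CPM in KO cells, against 284, 278 and 285 CPM in NT cells (-0.44 ± 0.05). PRPF39 (-0.59 ± 0.09), PRPF3 (-0.53 ± 0.05), SF3B5 (-0.52 ± 0.06) and U2AF1L5 (-0.78 ± 0.15) were lower. With the U2AF1 and U2AF1L5 counts summed the value was -0.21 ± 0.06 (adjusted p = 0.0082).

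Under GSI 26 of the 72 genes were higher and 10 lower in KO cells, whereas 33.8% of all genes were called and 18.8% of all genes were higher. All 8 Sm core genes were higher, with a median of 0.41 and values from 0.26 for SNRPN to 0.48 for SNRPE. SNRPE was at 258, 254 and 258 CPM in KO cells, against 188, 194 and 168 CPM in NT cells, without overlap. HNRNPLL was higher by 0.75 ± 0.05 and U2AF1L5 by 0.75 ± 0.15 (0.30 ± 0.06 with the U2AF1 counts summed, adjusted p = 0.00074), and PRPF39 (-0.51 ± 0.09), HNRNPH1 (-0.35 ± 0.08), SRSF5 (-0.35 ± 0.08) and PRPF3 (-0.32 ± 0.05) were lower. HNRNPA1L3 was higher by 1.36 ± 0.21 under CB-103 and 0.90 ± 0.20 under GSI, but is subject to the uncertainty over the HNRNPA1 copies.

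The difference between the genotypes' responses was tested directly, as KO minus NT. For CB-103, 13 genes had a higher value in KO cells and 3 a lower one (22.2%), against 10.3% and 4.34% of all genes (14.6% in all). They included 6 of 8 Sm core genes (SNRPD2 0.55 ± 0.08, SNRPF 0.52 ± 0.08, SNRPD1 0.52 ± 0.13, SNRPE 0.46 ± 0.08, SNRPD3 0.36 ± 0.06 and SNRPB 0.34 ± 0.10), each of which fell less in KO cells. They also included 6 of 23 hnRNP genes, led apart from HNRNPA1L3 (1.10 ± 0.29) by HNRNPA1 (0.68 ± 0.07, adjusted p = 1.6e-05), and the U1 gene SNRPC (0.34 ± 0.08). The fall of SNRPG was not shown to differ (0.28 ± 0.12, adjusted p = 0.13). SRSF6 averaged 208 ± 6.60 CPM under CB-103 and 224 ± 11.5 CPM under DMSO in KO cells, but 282 ± 4.02 and 227 ± 7.77 CPM in NT cells, a difference of responses of -0.42 ± 0.08 (adjusted p = 0.0013). PRPF3, a tri-snRNP protein, was at 75.8, 75.7 and 74.3 CPM under CB-103 against 88.2, 85.2 and 84.1 CPM under DMSO in KO cells, and at 111, 102.9 and 111 CPM against 91.9, 83.3 and 87.6 CPM in NT cells (-0.50 ± 0.07, adjusted p = 9.3e-05). PRPF3 thus fell in KO cells and rose in NT cells. SRSF10 rose less in KO cells (-0.26 ± 0.07, adjusted p = 0.014). The call of SNRPB was lost without any of several single libraries (adjusted p up to 0.11, without replicate 3 of KO cells under CB-103), that of HNRNPA1L3 without the same library (adjusted p = 0.052), and the count was 25 without replicate 1.

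**Figure D3:**
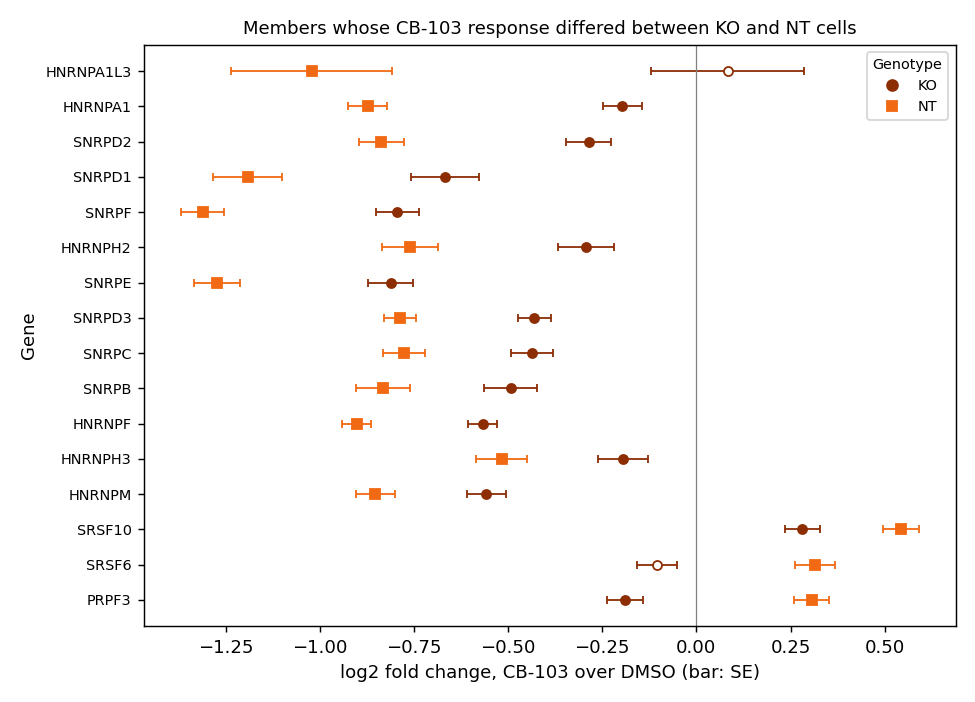
log2 fold change of CB-103 over DMSO in KO (circles) and NT cells (squares), with SE, for the 16 genes whose response to CB-103 differed between the genotypes; open symbols did not pass adjusted p under 0.05. SNRPF lies at -0.79 in KO and -1.31 in NT cells, and PRPF3 at -0.19 in KO and 0.31 in NT cells.

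For GSI, 10 genes had a higher value in KO cells and 1 a lower one (15.3%), against 2.1% and 0.692% of all genes (2.79% in all). They were SNRPD1 (0.51 ± 0.13, adjusted p = 0.042), SNRPF (0.40 ± 0.08, adjusted p = 0.021), SNRPD2, SNRPD3, HNRNPA1 (0.32 ± 0.07), HNRNPF, HNRNPLL, SRSF9, SF3B5, U2AF1L5 (1.15 ± 0.21) and, with a lower value, PRPF3 (-0.29 ± 0.07, adjusted p = 0.035). With the U2AF1 and U2AF1L5 counts summed the value was 0.32 ± 0.08 (adjusted p = 0.047). This count hung on single libraries. It was 1 without replicate 2 or 3 of KO cells under GSI, without replicate 1 of NT cells under DMSO or without all of replicate 1, and 2 without replicate 1 of NT cells under GSI or replicate 2 of NT cells under DMSO. It was 4 without replicate 3 of either NT group, 6 without replicate 1 or 2 of KO cells under DMSO, 19 without replicate 2 of KO cells under CB-103 and 22 without replicate 2 of NT cells under GSI.

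The 2 drugs were also set against each other within each genotype; their doses are not given, and the comparisons with DMSO share the same DMSO libraries. In KO cells 37 genes were lower and 10 higher under CB-103 than under GSI (65.3%), against 23.1% and 24.7% of all genes (47.9% in all). In NT cells 39 were lower and 16 higher (76.4%), against 27.1% and 29.2% (56.3% in all). SNRPG was lower under CB-103, at -0.98 ± 0.08 in KO and -1.14 ± 0.08 in NT cells, as were SNRPE (-0.83 ± 0.06 and -0.997 ± 0.06) and SRSF7 (-0.90 ± 0.05 and -0.71 ± 0.05). Higher under CB-103 were SRSF10 (0.36 ± 0.05 in KO and 0.53 ± 0.05 in NT cells), PRPF19 (0.41 ± 0.05 and 0.48 ± 0.05) and PRPF18 (0.24 ± 0.06 and 0.54 ± 0.06, the KO value with an adjusted p of 0.071 without replicate 3 of KO cells under CB-103). In KO cells SNRPD1 (-0.81 ± 0.09) was lower and PRPF6 (0.31 ± 0.05) higher. In NT cells HNRNPAB (-0.88 ± 0.11) and SNRPF (-0.85 ± 0.06) were lower and U2AF1L5 (1.32 ± 0.15) higher, the last at 0.59 ± 0.06 with the U2AF1 counts summed. SF3B1 did not pass the test in either genotype (-0.10 ± 0.06 and 0.00 ± 0.06).

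Gene counts add coding and non-coding transcripts together. The deposited transcript estimates, in TPM, separate them: GENCODE 29 lists for many of these genes protein-coding transcripts, transcripts bound for nonsense-mediated decay (decay transcripts) and transcripts that keep an intron. The balance between decay plus retained-intron transcripts and coding transcripts was tested with limma on a log2 scale with 0.1 TPM added to each class, over the 4682 genes with at least 1 TPM in both. In KO cells under CB-103 it rose for 3 of 46 splicing factor genes measured and fell for none, against 1.56% and 0.726% of all genes (2.29% in all). In NT cells it rose for 10 and fell for none, against 6.6% and 0.961% (7.56% in all; 22 of the 46 had an unadjusted p under 0.05). SNRPB (2.22 ± 0.18 in KO and 3.22 ± 0.18 in NT cells), HNRNPDL (2.02 ± 0.14 and 2.22 ± 0.14) and SRSF2 (1.79 ± 0.22 and 1.75 ± 0.22) rose in both genotypes, and HNRNPM (1.89 ± 0.40) in NT cells. Under GSI limma called no splicing factor in either genotype, against 0.0214% of all genes in each (5 of 46 had an unadjusted p under 0.05 in KO and 1 in NT cells), nor under DMSO between KO and NT cells (0.0214%; 6 of 46 with an unadjusted p under 0.05). Against GSI, the balance under CB-103 was higher for 6 of 46 genes in KO cells, against 3.31% of all genes (3.97% in all), and for 7 in NT cells, against 3.25% (4.27% in all). SNRPB (2.21 ± 0.18 in KO and 3.02 ± 0.18 in NT cells), HNRNPDL (2.18 ± 0.14 and 2.43 ± 0.14) and SRSF2 (1.68 ± 0.22 and 1.65 ± 0.22) led in both, followed by HNRNPD in KO cells (1.01 ± 0.24) and HNRNPM in NT cells (1.65 ± 0.40). The calls of HNRNPD and HNRNPM were lost without single libraries (adjusted p up to 0.11 for each).

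With decay transcripts alone, the balance under CB-103 rose for 7 of 31 genes in KO cells, against 5.92% of all 2347 genes (6.65% called in all), and for 14 in NT cells, against 14.7% (16.1% in all); none fell. The median was 0.38 over the 31 genes and 0.17 over all genes in KO cells, and 0.99 and 0.31 in NT cells. The genes called in both genotypes were SRSF3 (2.19 ± 0.24 in KO and 3.44 ± 0.24 in NT cells), SNRPB, HNRNPDL, SRSF2, SRSF10 (1.76 ± 0.16 and 2.14 ± 0.16), HNRNPD and HNRNPL, and those called in NT cells but not in KO cells were HNRNPM, SF3B3, PRPF39, SRSF7, PRPF4B, U2AF2 and HNRNPA2B1. The calls of SF3B3 in NT cells and of HNRNPL in KO cells were lost without single libraries (adjusted p up to 0.064, without replicate 3 of NT cells under CB-103, and up to 0.13, without replicate 1 of KO cells under CB-103) and without all libraries of replicate 1 (0.11 and 0.22). These transcripts were not tested one by one: their levels are given as description.

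The premature stop codons lie in exons that can be read from the annotation. Of 51 decay transcripts with a mean of at least 1 TPM from members that also have a coding transcript, 16 from 11 genes have the stop in an exon that overlaps no exon of a coding transcript, a so-called poison exon. Of those whose genes were called above, 4 are printed as examples, picked without a set rule, to show where the reading frame ends. Each runs from the first base of the exon to the premature stop, which is in capitals, 5′ to 3′ on the gene's strand. Others, among them SRSF3-204, SF3B3-209, PRPF39-202 and U2AF2-203, are not shown. Coordinates are of hg38 with the transcripts of GENCODE 29.
SRSF3-203, exon 4 of 7, chr6:36599821-36599854, plus strand, exon of 456 bases: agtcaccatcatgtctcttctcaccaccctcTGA
SNRPB-203, exon 3 of 8, chr20:2467258-2467315, minus strand, exon of 124 bases: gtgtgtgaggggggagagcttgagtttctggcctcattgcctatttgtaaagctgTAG
SRSF7-204, exon 4 of 9, chr2:38749319-38749346, minus strand, exon of 449 bases: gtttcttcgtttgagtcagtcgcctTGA
HNRNPL-202, exon 7 of 14, chr19:38841624-38841682, minus strand, exon of 70 bases: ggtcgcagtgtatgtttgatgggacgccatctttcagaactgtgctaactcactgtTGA

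SRSF3-203, the transcript with the SRSF3 exon above, was at 65.0, 47.5 and 57.0 TPM in KO cells and 122.8, 114 and 119.7 TPM in NT cells under CB-103. Under GSI it was at 23.5, 12.8 and 18.3 TPM in KO cells and 19.2, 18.6 and 18.6 TPM in NT cells, and under DMSO at 19.97, 11.6 and 13.9 TPM in KO cells and 15.3, 11.3 and 12.5 TPM in NT cells. The CB-103 libraries stood apart from all others, the NT ones highest. Decay transcripts made up 15.2 ± 1.9% of SRSF3 TPM in KO cells and 26.0 ± 1.1% in NT cells under CB-103, against 3.90 ± 0.84% in KO cells and 3.55 ± 0.43% in NT cells under DMSO (SD, n = 3 each). SNRPB-203 was at 15.5, 14.9 and 13.3 TPM in KO cells and 23.9, 25.6 and 21.9 TPM in NT cells under CB-103, and at 3.87 to 5.79 TPM in the 12 libraries under GSI or DMSO. SRSF7-204 was at 6.29, 6.14 and 5.72 TPM in KO cells and 12.7, 13.8 and 12.3 TPM in NT cells under CB-103, against 4.93, 2.82 and 3.02 TPM in KO cells and 3.89, 3.00 and 2.44 TPM in NT cells under DMSO. HNRNPL-202 was at 12.5, 9.82 and 10.2 TPM in KO cells and 11.9, 11.8 and 10.5 TPM in NT cells under CB-103, against 8.66, 7.39 and 8.14 TPM in KO cells and 6.95, 6.66 and 4.11 TPM in NT cells under DMSO. In both genotypes all CB-103 libraries lay above all DMSO libraries for each of these transcripts. Their genes had already been called for a rise of the decay balance (SRSF7 in NT cells only), so this separation is description and not a further test.

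**Figure D4:**
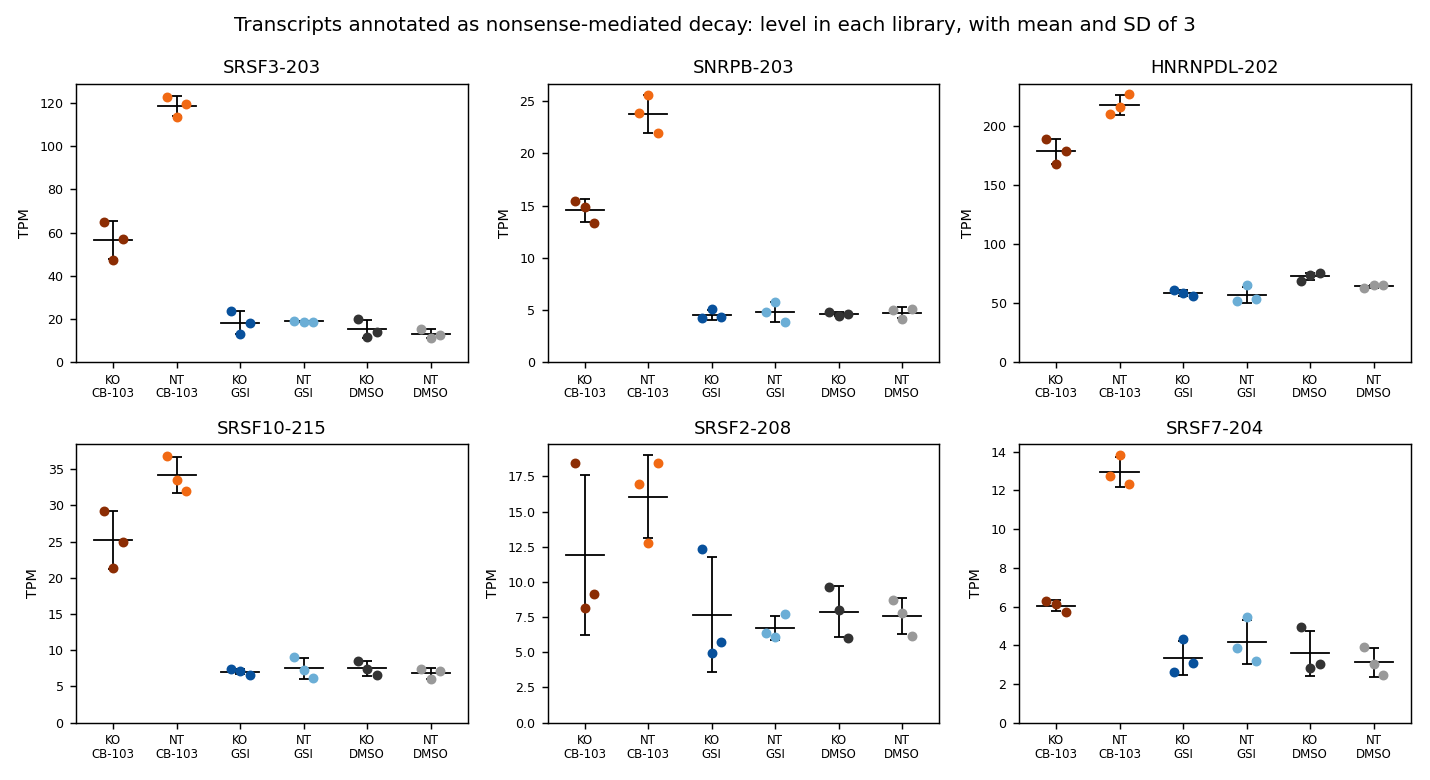
TPM of 6 decay transcripts in each of the 18 libraries, with the mean and SD of 3 libraries per group, KO left of NT within each treatment. SRSF3-203 reaches 47.5 to 122.8 TPM under CB-103 and 11.3 to 23.5 TPM under GSI or DMSO.

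In HNRNPDL-202 and SRSF10-215 the stop lies in an exon that overlaps coding exons. HNRNPDL-202 was at 189, 168 and 179 TPM in KO cells and 210.1, 216 and 227 TPM in NT cells under CB-103, against 68.8, 73.6 and 75.0 TPM in KO cells and 62.7, 65.2 and 64.9 TPM in NT cells under DMSO. Decay transcripts thus made up 50.3 ± 2.8% of HNRNPDL TPM in KO cells and 51.5 ± 0.87% in NT cells under CB-103, against 19.9 ± 0.52% and 18.6 ± 0.64% under DMSO. SRSF10-215 was at 29.3, 21.4 and 25.0 TPM in KO cells and 36.9, 33.5 and 32.1 TPM in NT cells under CB-103, and at 5.99 to 9.09 TPM in the other 12 libraries.

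Levels of the coding and of the decay class, each tested alone by limma on log2(TPM + 0.1) after the data had been seen, show which side of the balance moved under CB-103. For SRSF3 the coding class changed by -0.82 ± 0.06 and the decay class by 1.37 ± 0.22 in KO cells. In NT cells its coding class averaged 180 ± 9.57 TPM under CB-103 and 341 ± 14.7 TPM under DMSO (-0.92 ± 0.06), while its decay class rose by 2.51 ± 0.22. SNRPB in NT cells had its coding class at -0.91 ± 0.08 and its decay class at 2.31 ± 0.14. For SRSF10 the decay class rose by 1.64 ± 0.15 in KO and 2.24 ± 0.15 in NT cells, while the coding class was at -0.11 ± 0.05 in KO cells (adjusted p = 0.035) and 0.09 ± 0.05 in NT cells (adjusted p = 0.073). The higher gene count given above did not come with a coding level that passed the test upward. For HNRNPDL, whose gene count was not called in NT cells (0.06 ± 0.05, adjusted p = 0.28), the coding class changed by -0.63 ± 0.05 and the decay class by 1.58 ± 0.07 there. SRSF7 differed: in NT cells its decay class as a whole was at -0.02 ± 0.15 (adjusted p = 0.92), while its coding class fell by 1.04 ± 0.06. In KO cells, where its decay balance was not called, all SRSF7 transcripts averaged 172 ± 5.4 TPM under CB-103 and 317 ± 1.5 TPM under DMSO. Decay transcripts made up 10.7 ± 2.0% and 8.93 ± 1.4% of SRSF7 TPM there (SD). Over all members measured, the coding class fell for 47 and rose for 10 of 70 genes in KO cells, against 34.7% and 29.5% of all 10563 genes (64.2% called in all). It fell for 45 and rose for 12 in NT cells, against 37.4% and 35.3% of all genes (72.7% in all). The decay class rose for 5 and fell for 3 of 32 genes in KO cells, near the 18.4% and 6.18% of all 2426 genes (24.6% called in all), and the median of 0.12 lay below the 0.21 of all genes. The class rose for 13 and fell for 2 in NT cells, against 29.5% and 8.41% of all genes (37.9% in all), with a median of 0.67 against 0.38. Decay transcripts of all genes in the files took 3.77 ± 0.0247% of TPM in KO and 3.74 ± 0.0599% in NT cells under CB-103, against 3.27 ± 0.0772% in KO and 3.12 ± 0.0868% in NT cells under DMSO. Their part in the members' values was not tested.

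**Figure D5:**
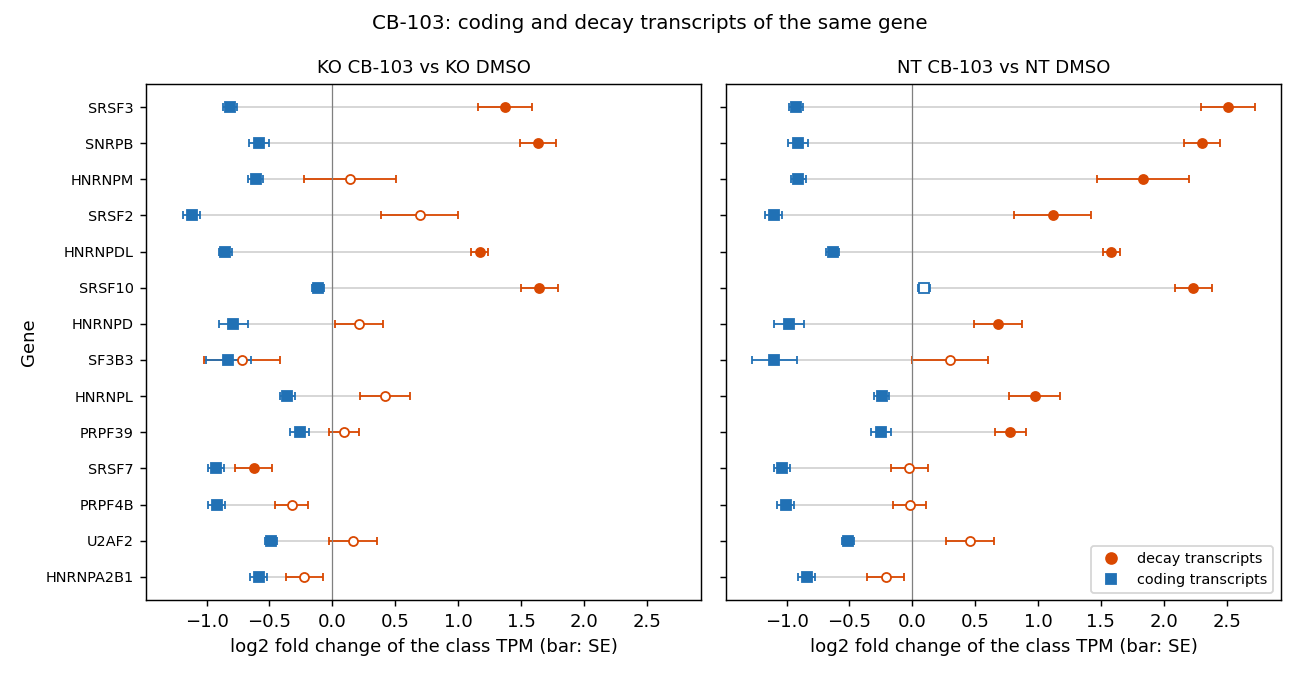
log2 fold change of CB-103 over DMSO, with SE, of the decay class (circles) and the coding class (squares) in KO cells (left) and NT cells (right), for the 14 genes whose decay balance rose in NT cells; open symbols did not pass adjusted p under 0.05. SRSF3 lies at -0.82 (coding) and 1.37 (decay) in KO cells and at -0.92 and 2.51 in NT cells.

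Between the genotypes under CB-103, the combined balance was lower in KO cells for 9 of 46 genes and higher for none, against 8.82% and 0.32% of all genes (9.14% in all), and under GSI lower for 12, against 12.5% (12.7% in all). Retained-intron transcripts of all genes took 3.88 ± 0.355% of TPM in KO and 4.59 ± 0.161% in NT cells under CB-103, and 3.66 ± 0.161% in KO and 4.62 ± 0.275% in NT cells under GSI (SD, n = 3 each). Their part in these counts was not tested. With retained-intron transcripts alone, 10 of 38 genes were lower in KO cells under CB-103, against 17.6% of all genes (17.9% in all). Under GSI 15 of 38 were, against 25.8% (26.0% in all). The largest values of the combined balance under CB-103 were for SNRPF (-2.20 ± 0.34), SRSF5 (-1.89 ± 0.29), HNRNPM (-1.82 ± 0.40) and SNRPA1 (-1.64 ± 0.26). Under GSI they were for SRSF5 (-1.63 ± 0.29), U2AF1 (-1.49 ± 0.45), U2AF1L5 (-1.48 ± 0.44) and SNRPF (-1.44 ± 0.34). The counts of the combined balance (9 under CB-103 and 12 under GSI) rested on few libraries: both were 0 without replicate 1. Under CB-103 the count was 4 without replicate 1 of KO cells or replicate 3 of NT cells, 5 without replicate 3 of KO cells or replicate 2 of NT cells, and 15 without replicate 2 of KO cells. Under GSI it was 0 without replicate 3 of NT cells, 1 without replicate 1 of NT cells, and 2, 7 and 6 without replicates 1, 2 and 3 of KO cells. With decay transcripts alone, 5 of 31 genes were lower in KO cells under CB-103 (HNRNPM, SRSF3, SRSF7, SNRPB and PRPF39), against 1.53% of all genes (1.83% in all), and 1 to 3 genes without any single one of the 6 CB-103 libraries. Under GSI 1 of 31 was lower, against 0.341% (0.426% in all). The 2 responses' difference was called for no member in either drug by limma, with the combined classes or with decay transcripts alone, where 8 of 31 genes had an unadjusted p under 0.05 for CB-103 and 4 for GSI (0.0% of all genes called in each); SRSF3 was at -1.25 ± 0.34 (adjusted p = 0.27).

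Other genes of the splicing pathway were followed in 6 lists, with the counts of all genes given above as the background. Under CB-103 23.7% of all genes fell and 24.9% rose in KO cells, and 28.7% fell and 29.5% rose in NT cells. Of the LSM and other snRNP proteins 13 of 23 fell and 4 rose under CB-103 in KO cells, and 14 fell and 6 rose in NT cells, where LSM3 (-1.11 ± 0.08), LSM4 (-1.003 ± 0.05) and LSM6 (-0.99 ± 0.06), parts of LSM rings that bind RNA, were foremost. Of the snRNP assembly factors 8 of 15 fell and 3 rose in KO cells and 9 fell and 1 rose in NT cells, among them GEMIN6 of the SMN complex (-0.73 ± 0.14 in KO and -1.05 ± 0.14 in NT cells) and WDR77, a partner of the Sm methylase PRMT5 (-0.59 ± 0.06 and -0.76 ± 0.06). Under GSI 4 of these 15 fell and 1 rose in KO cells (19.3% of all genes called). In NT cells under GSI 7 fell and none rose (24.7% of all genes called), with PRMT5 at -0.49 ± 0.07. The helicase DHX15, which takes spliceosomes apart, changed by -0.79 ± 0.05 in KO and -0.95 ± 0.05 in NT cells under CB-103. Of 9 helicases 4 fell in each genotype, and 1 rose in KO and 2 in NT cells. The shares called were near the 48.6% and 58.2% of all genes called in KO and NT cells.

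Of 7 kinases of SR proteins 2 rose and 2 fell under CB-103 in KO cells, where 48.6% of all genes were called. In NT cells 3 rose and 2 fell, where 58.2% of all genes were called, so that both shares were near those of all genes. CLK1 rose by 0.48 ± 0.06 in KO and by 0.78 ± 0.06 in NT cells, and SRPK1 changed by -0.37 ± 0.05 and -0.57 ± 0.05. The response of CLK1 differed between genotypes by -0.30 ± 0.09 and that of CLK4 by -0.41 ± 0.13. Of 32 SR-related and other regulators 18 fell and 8 rose in KO cells, against 23.7% and 24.9% of all genes. In NT cells 16 of them fell and 10 rose, against 28.7% and 29.5% of all genes. ZRSR2, which acts on minor introns, rose by 0.97 ± 0.07 in KO and 1.34 ± 0.07 in NT cells, and SFPQ changed by -0.74 ± 0.05 and -0.81 ± 0.05. Of 15 nonsense-mediated decay factors 4 rose and 3 fell in KO cells, close to the 24.9% and 23.7% of all genes, with UPF1, the central helicase of the pathway, at -0.56 ± 0.04. In NT cells 7 rose and 4 fell, against 29.5% and 28.7% of all genes, with UPF3B at 0.83 ± 0.07, UPF3A at 0.66 ± 0.07 and EIF4A3 of the exon junction complex at -0.60 ± 0.05. Under GSI 3 of the 15 fell and none rose in KO cells (19.3% of all genes called), and 6 fell and 1 rose in NT cells (24.7%). The part of these factors in the decay transcript levels was not tested.

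The E-box CACGTG, a sequence bound by MYC and its partners and identical on both strands, was looked for in the promoters, taken as 250 bases before to 50 bases after each gene's start in RefSeq (GRCh38.p14). Of the 72 genes 62 had a promoter in that table, and 8 of these (12.9%) held the motif, against 8.77% of 27305 genes. The 8 were 7 of 21 hnRNP genes (HNRNPA3, HNRNPD, HNRNPDL, HNRNPH2, HNRNPH3, HNRNPM and HNRNPUL1) and SF3B1. None of the 7 Sm core promoters held these letters in this window.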

How the data were processed

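Polyadenylated RNA of 18 libraries was sequenced as paired reads of 75 nt. The submitters' processing notes list Salmon 1.4.0, HISAT2 2.2.1, FastQC 0.11.9 and the hg38 build, without their roles. The gene table holds estimated counts (expected counts) that the authors rounded to whole numbers and deposited. The deposited transcript files hold TPM and estimated counts for each transcript, per the file headers, and all 206601 transcripts were matched to GENCODE 29.

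Gene counts were tested with edgeR 4.0.16 (quasi-likelihood, R 4.3.3, TMM factors 0.954 to 1.03, filterByExpr) in 1 fit of 6 groups, with Benjamini-Hochberg adjustment over 17346 genes and a threshold of 0.05. The ratio of decay and retained-intron TPM to coding TPM was tested with limma 3.58.1 on log2 values with 0.1 TPM added, for genes with at least 1 TPM in both classes. The scripts were tested on simulated data. Each comparison names the 4 largest called rises and falls with a mean of at least 20 CPM, the 3 largest differences of responses in each direction, fixed members, and up to 3 called genes of each companion list. Other members, such as PRPF31 and HNRNPA1L2 under CB-103, lie outside this rule. They were chosen after their values were seen, and only some of them are marked so above. The members and lists were chosen with earlier results of these data known. Alternatives were DESeq2 1.42.0, another scaling, no filter, gene sums of transcript estimates, a replicate block, other pseudocounts and transcript classes, and leaving out libraries. Same-numbered libraries of different groups deviated together in 31 of 45 pairs (correlation over 0.1, median 0.127, lowest -0.071). The median was -0.136 between libraries of different numbers. Deviations cancel within each group, so a positive value for same-numbered libraries brings a negative one here. It is not a separate contrast. The labels do not say that a number marks a shared culture or day, so the main fit did not pair the samples and the block was kept as an alternative. A deposited table of variance-stabilised values was not used.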

Additional observations from a re-analysis of the deposited data

Results flagged for a closer look

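Responses to CB-103 differed between KO and NT cells for 16 of the 72 genes by a test of the difference itself (edgeR, KO minus NT, adjusted p under 0.05). Those with the largest values in each direction were HNRNPA1L3 (1.10), HNRNPA1 (0.68), SNRPD2 (0.55), PRPF3 (-0.50), SRSF6 (-0.42) and SRSF10 (-0.26). For SNRPD2 the libraries under CB-103 were at 216, 219.9 and 231 CPM in KO cells, against 160.3, 140.2 and 151 CPM in NT cells.

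Responses to GSI differed by the same test for 11 genes, among them U2AF1L5 (1.15), SNRPD1 (0.51), SNRPF (0.40) and PRPF3 (-0.29). With the U2AF1 and U2AF1L5 counts summed the value was 0.32 (adjusted p = 0.047), and leaving out libraries gave counts of 1 to 22. SNRPD1 was at 169, 153 and 159 CPM in KO cells under GSI, against 122, 116 and 107 CPM in NT cells under GSI.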

How the results depend on the processing

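Of 7200 recomputed fold changes, 6864 kept their direction and their side of the threshold, 199 lost and 136 gained a call, and 1 turned: SF3B1 between CB-103 and GSI in NT cells, at 0.00, was -0.13 with gene sums of transcript estimates. For the combined balance, 479 of 541 values stayed, 61 lost their call, and U2AF1L5 between KO and NT cells under GSI turned to 0.18 with decay transcripts alone; the cause was not tested.

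Counts of called members moved by over 1.5 times as follows. The DESeq2 Wald test gave 15 (9 with edgeR) between KO and NT cells under DMSO, 25 (16) for the CB-103 response difference and 20 (11) for the GSI one, which was 6 without the count filter. With the replicate number as a block, whose pairing is not established, these counts were 19, 29 and 20, and GSI in KO cells gave 17 (10); no balance count moved by as much. Leaving out libraries gave 6 to 16 between genotypes under DMSO, 13 to 25 for the CB-103 and 1 to 22 for the GSI response difference.

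Balance counts with decay transcripts alone were 7 for CB-103 in KO cells (3 combined), 5 (9) between KO and NT cells under CB-103, 1 (12) under GSI, and 10 (6) in KO and 12 (7) in NT cells between CB-103 and GSI. With retained-intron transcripts alone they were 1 for CB-103 in KO and 2 (10) in NT cells, and 1 in KO and 2 in NT cells between the drugs. Without a TPM filter the count under GSI between genotypes was 5. Leaving out libraries gave 0 to 15 between genotypes under CB-103 and under GSI, 3 to 7 in KO cells and 4 to 8 in NT cells between the drugs, and, with decay transcripts alone, 0 to 6 under CB-103, 0 to 4 under GSI and 6 to 10 in KO cells between the drugs. Transcript estimates carry uncertainty from shared sequence that the libraries' spread shows only in part.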
